A study of Mus musculus with 7 samples.

Results

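The iron absorption genes described here are Slc11a2, Slc40a1, Cybrd1 and Heph, which encode the proteins that carry non-haem iron across the enterocyte of the proximal intestine. Their members were VDR peaks (VDR, the vitamin D receptor) whose centre lay within 50 kb of one of these 4 gene bodies on mouse build mm9. They came to 104 of 169686 peaks over 6 libraries, and merged into 45 of 87029 regions. The assay was chromatin immunoprecipitation with sequencing (ChIP-seq), in which an anti-VDR antibody recovers the DNA that the receptor sits on, and a peak marks a place where sequenced fragments pile up.

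Treated mice were given 1,25(OH)2D3, which is the active hormone made from vitamin D, in a dose of 10 ng/g (3 libraries), and control mice were given vehicle (3 libraries). All mice were wild type, ate standard chow, were 8 weeks old and were killed 1 h after treatment. The strain and sex are not given in the sources used here. Epithelial cells were released with EDTA from duodenum and jejunum together, so the libraries are a mixture of epithelial cell types and of a segment that absorbs most iron with one that absorbs less. An input library, whose label carries the hormone dose, was not analysed here, and no library measures RNA or marker genes, so the cell type could not be checked. It is not stated that the libraries are separate mice, and p-values then measure only the spread between these libraries, which may be technical.

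Dietary ferric iron is first reduced at the brush border by the ferric reductase DCYTB, encoded by Cybrd1. The ferrous iron enters the cell through the proton-coupled transporter DMT1 (Slc11a2) and leaves it across the basolateral membrane through ferroportin (Slc40a1), the only known iron exporter of mammalian cells and the target of the liver hormone hepcidin. Hephaestin (Heph), a copper-containing ferroxidase, re-oxidises the exported iron so that transferrin can bind it. Slc11a2, Slc40a1 and Cybrd1 are known for control by hypoxia-inducible factor 2-alpha, and transcripts of Slc11a2 and Slc40a1 also carry iron-responsive elements. The VDR binds DNA as a heterodimer with RXR, typically at a direct repeat of the hormone receptor sequence with a spacer of 3 bases, called DR3.

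The regions found in the most libraries at each gene, and the highest-placed region that was in every 1,25(OH)2D3 and no vehicle library (hormone-only below), are shown because the results turn on them. Each is the plus strand of mm9, 5′ to 3′, cut to at most 300 bases around the centre and clear of annotated exons. Capitals mark the closest DR3 match where it has at most 2 mismatches. The first lies near the upstream starts of Slc11a2 (chr15:100254778-100255077) and the next at a downstream start of Slc11a2 (chr15:100233854-100234034, hormone-only). They are followed by the regions 48.8 kb (chr1:45933524-45933823) and 20.2 kb (chr1:45962137-45962436, hormone-only, no match) downstream of the start of Slc40a1, the region behind the 3′ end of Cybrd1 (chr2:70984195-70984494), and the sequence just before the start of Heph (chrX:93650504-93650697).
Slc11a2 upstream starts: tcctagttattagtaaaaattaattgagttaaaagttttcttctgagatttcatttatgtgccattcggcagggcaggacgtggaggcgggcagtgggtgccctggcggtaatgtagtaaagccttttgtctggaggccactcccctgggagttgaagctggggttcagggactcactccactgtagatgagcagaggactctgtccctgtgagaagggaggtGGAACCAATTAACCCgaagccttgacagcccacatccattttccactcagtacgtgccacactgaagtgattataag
Slc11a2 downstream start: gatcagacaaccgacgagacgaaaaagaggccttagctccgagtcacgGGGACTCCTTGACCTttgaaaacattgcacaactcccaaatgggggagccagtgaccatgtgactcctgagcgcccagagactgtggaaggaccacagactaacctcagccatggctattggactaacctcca
Slc40a1 distal: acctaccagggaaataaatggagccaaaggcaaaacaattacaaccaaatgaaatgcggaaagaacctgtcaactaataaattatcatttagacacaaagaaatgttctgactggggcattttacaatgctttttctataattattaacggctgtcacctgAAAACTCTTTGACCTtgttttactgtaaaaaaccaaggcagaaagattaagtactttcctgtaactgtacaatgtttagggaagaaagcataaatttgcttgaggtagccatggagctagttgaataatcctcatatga
Slc40a1 proximal: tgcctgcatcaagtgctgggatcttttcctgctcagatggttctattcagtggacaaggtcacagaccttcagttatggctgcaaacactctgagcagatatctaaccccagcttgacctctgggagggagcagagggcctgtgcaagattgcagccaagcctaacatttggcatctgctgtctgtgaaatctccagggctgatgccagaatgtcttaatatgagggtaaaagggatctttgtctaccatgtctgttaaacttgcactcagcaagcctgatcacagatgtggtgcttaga
Cybrd1: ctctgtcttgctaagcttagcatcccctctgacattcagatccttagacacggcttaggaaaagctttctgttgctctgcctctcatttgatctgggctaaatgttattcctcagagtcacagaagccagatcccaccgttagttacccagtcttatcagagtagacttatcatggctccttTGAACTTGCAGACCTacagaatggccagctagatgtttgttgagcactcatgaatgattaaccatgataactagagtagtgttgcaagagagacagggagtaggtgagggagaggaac
Heph: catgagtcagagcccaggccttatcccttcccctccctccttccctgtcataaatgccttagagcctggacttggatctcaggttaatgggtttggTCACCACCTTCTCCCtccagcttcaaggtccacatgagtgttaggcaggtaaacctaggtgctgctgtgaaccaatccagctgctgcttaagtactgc

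Libraries held 17152461 to 66524392 tags with 1,25(OH)2D3 and 15991198 to 68560701 with vehicle, and replicate 3 was the deep library of both groups. Their lists held 25510 to 41722 peaks with 1,25(OH)2D3 and 8756 to 48425 with vehicle, the longest being that of vehicle replicate 3. The approximate share of tags in peaks was 11.86, 15.89 and 18.96% with 1,25(OH)2D3 and 2.58, 4.81 and 8.1% with vehicle (replicates 1, 2 and 3). These ranges do not overlap, and what this share does to peak numbers was not tested. The lists say whether a peak was called and where, but not how many tags it held. Each peak's place in its list is given as a percentile, 100 for the first peak; what value sets the order is not stated in the files, so it is a position and not an occupancy.

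Near the 4 genes together, 1,25(OH)2D3 libraries held 16, 22 and 25 peaks (replicates 1, 2 and 3 here and below), against 6, 12 and 23 in vehicle libraries. The means were 21.0 ± 4.58 with 1,25(OH)2D3 and 13.7 ± 8.62 with vehicle (SD, n = 3 each), a difference of 7.33 peaks (exact two-sided permutation p = 0.3, where 3 against 3 cannot go below 0.1). The groups overlap, because vehicle replicate 3 held more peaks than 1,25(OH)2D3 replicates 1 and 2. With vehicle replicate 3 left out the difference was 12.0, and with vehicle replicate 1 left out it was 3.50. Between the shallow libraries (replicates 1 and 2) the means were 19 with 1,25(OH)2D3 and 9 with vehicle, and between the deep libraries the numbers were 25 and 23. Per 10000 peaks of its own library, the set held 6.50 ± 0.654 with 1,25(OH)2D3 and 6.56 ± 1.68 with vehicle (SD, n = 3 each, exact permutation p = 1), so the sign of the small difference turned (-0.0533).

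The 4 genes differed in where and in how many libraries their regions lay. Peaks were more numerous with 1,25(OH)2D3 at Slc11a2 in every library, and at Slc40a1 on average. Cybrd1 and Heph each had 1 region, high in the lists, in every library of both groups and few other peaks that recurred. Of the 45 regions, 4 were hormone-only (8.89%, against 5.39% of all regions) and 3 were in all 6 libraries (6.67%, against 4.99%). None were in all vehicle and no 1,25(OH)2D3 libraries (against 0.0299% of all regions), or in at least 2 vehicle and no 1,25(OH)2D3 libraries (against 0.471%). At least 2 1,25(OH)2D3 and no vehicle libraries held 5 (11.1%, against 12.3%). The 4 hormone-only regions divided evenly between Slc11a2 and Slc40a1, with 2 at each. The regions in all 6 libraries were 1 each at Slc40a1, Cybrd1 and Heph. All 1,25(OH)2D3 libraries held 13 of the 45 regions (28.9%, against 20.5% of all regions), and all vehicle libraries 3 (6.67%, against 5.33%). At least 2 1,25(OH)2D3 libraries held 19 (42.2%, against 32.4%), and at least 2 vehicle libraries 6 (13.3%, against 12.1%). More 1,25(OH)2D3 than vehicle libraries held 22 regions (48.9%, against 48.3%), more vehicle than 1,25(OH)2D3 libraries held 14 (31.1%, against 41.7%), and equal numbers held 9 (20%, against 10%). Regions in 1 library only came to 22 (48.9%, against 62.6%), of which 12 were in vehicle replicate 3 only (26.7% of the 45, against 37% of all regions). These shares were not tested. Without vehicle replicate 2 the number of hormone-only regions was 7, and 1 with lists of equal length.

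**Figure D1:**
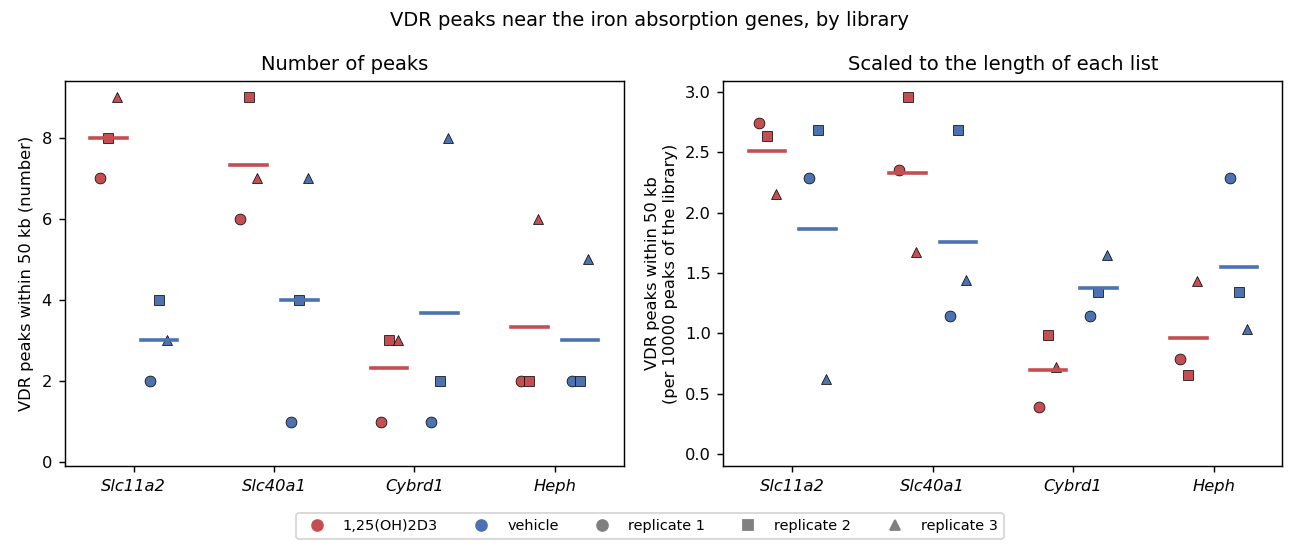
VDR peaks within 50 kb of each gene, as the number of peaks (left) and per 10000 peaks of the library (right), for 1,25(OH)2D3 (red) and vehicle (blue); symbols are libraries and bars are means of 3. At Slc11a2 the 1,25(OH)2D3 libraries held 7 to 9 peaks and the vehicle libraries 2 to 4, while at Cybrd1 and Heph the group ranges overlap in number.

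At Cybrd1 (ENSMUSG00000027015.4, chromosome 2, 70955980 to 70980983, plus strand), the brush-border ferric reductase, 1,25(OH)2D3 libraries held 1, 3 and 3 peaks, against 1, 2 and 8 in vehicle libraries. Only vehicle replicate 3 stood apart, and the group ranges overlap. The means were 2.33 ± 1.15 with 1,25(OH)2D3 and 3.67 ± 3.79 with vehicle (SD, n = 3 each), a difference of -1.33 (exact permutation p = 0.9). Without vehicle replicate 3 the sign turned, to 0.83. Per 10000 peaks, 1,25(OH)2D3 libraries held 0.392, 0.987 and 0.719, against 1.14, 1.34 and 1.65 in vehicle libraries. On that scale every 1,25(OH)2D3 library was below every vehicle library (exact permutation p = 0.1), which held for 1.64% of all protein-coding genes. These scaled values rest on 1 to 3 peaks with 1,25(OH)2D3 and 1 to 8 with vehicle. In replicate 1 both groups held 1 peak, so 0.392 and 1.14 differ only through the length of the lists.

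The place shared by all libraries at Cybrd1 lies behind the gene's 3′ end, 28.4 kb downstream of its start and between genes (chromosome 2, 70984175 to 70984513). It stood at list percentiles 89.3, 89.2 and 89.2 in 1,25(OH)2D3 libraries and 68.1, 79.7 and 94.8 in vehicle libraries. The 1,25(OH)2D3 libraries placed it almost alike, and vehicle libraries fell on either side of them. Its closest DR3, on the minus strand, reads AGGTCTGCAAGTTCA and has 1 mismatch. The centres of the 6 peaks lay within 68 bp of one another. The peaks of the remaining 10 regions of Cybrd1 were scattered, 8 of these regions being in 1 library only and 6 of them in vehicle replicate 3 only, at mean percentiles from 3.6 to 62.7. Among them 5 lay inside Dcaf17, the neighbouring gene. No library had a peak within 1 kb of the start of Cybrd1.

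At Slc11a2 (ENSMUSG00000023030.9, chromosome 15, 100218329 to 100255503, minus strand), the apical iron importer, 1,25(OH)2D3 libraries held 7, 8 and 9 peaks, against 2, 4 and 3 in vehicle libraries. Every 1,25(OH)2D3 library was above every vehicle library. The means were 8.00 ± 1.00 with 1,25(OH)2D3 and 3.00 ± 1.00 with vehicle (SD, n = 3 each), a difference of 5.00 peaks (exact permutation p = 0.1, the smallest possible; 0.62 after Benjamini-Hochberg adjustment over 22367 protein-coding genes). Groups without overlap in this direction were found at 16% of all protein-coding genes, and in the other direction at 0.0447%, where none of the 4 genes belonged. In size, 95.0% of genes had a smaller difference. Between the shallow libraries the means were 7.5 with 1,25(OH)2D3 and 3 with vehicle, and the deep libraries held 9 and 3. Per 10000 peaks the groups overlapped, at 2.74, 2.63 and 2.16 with 1,25(OH)2D3 and 2.28, 2.69 and 0.620 with vehicle (exact permutation p = 0.6). With lists of equal length, the first 8756 peaks of each, there was 1 peak in each 1,25(OH)2D3 library and 2, 3 and 1 in vehicle libraries, a difference of -1.

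Slc11a2 has alternative first exons, and VDR regions lay at its upstream and its downstream annotated starts. The region at the upstream starts (100254683 to 100255171) was centred 576 bp inside the outermost start, and also falls within the overlapping gene Gm5475. It stood at percentiles 82.5, 81.2 and 82.5 in 1,25(OH)2D3 libraries and at 73.9 in vehicle replicate 2, and was not called in vehicle replicates 1 and 3. This was the highest-placed described region of the gene in the 1,25(OH)2D3 lists, and the only one of them left there with lists of equal length. The region at the downstream starts (100233651 to 100234117) was hormone-only, at percentiles 44.6, 26.6 and 45.8, and its centre lay 31 bp upstream of an annotated start. Its peak centres were spread over 181 bp, and by a stricter rule, in which a peak must cover at least 50% of the narrowest peak of the region, 1 of the 3 libraries no longer counted, as was also the case for 1,25(OH)2D3 at the upstream starts.

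Further regions in several libraries lay upstream of the outermost start of Slc11a2. A second hormone-only region lay 11.7 kb upstream (100266950 to 100267384), at percentiles 43.5, 25.5 and 41.8. Regions 17.2 kb (100272490 to 100272994), 31.7 kb (100287050 to 100287408) and 43.7 kb (100299016 to 100299354) upstream were each in all 1,25(OH)2D3 libraries and in 1 vehicle library, which was replicate 1, 2 and 1 in this order. The region at 17.2 kb stood low, at 11.9, 10.4 and 14.0 with 1,25(OH)2D3 and 27.3 in vehicle replicate 1. It holds AGGTCATCGAGTTCC on the plus strand, the gene's only DR3 with 1 mismatch within 100 bp of a region's centre. The region at 43.7 kb lies 280 bp upstream of the start of Letmd1, which encodes a mitochondrial protein, and that at 31.7 kb is also closer to Letmd1 than to Slc11a2. A region 5.03 kb upstream (100260347 to 100260717) was in 1,25(OH)2D3 replicates 2 and 3 and vehicle replicate 2, at percentiles 13.3, 30.1 and 14.8.

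Beyond the 3′ end of Slc11a2, a region in an intron of Mettl7a2 (100186352 to 100186749) was in 2 libraries of each group. The remaining 3 regions were in 1 or 2 libraries, at mean percentiles from 29.8 to 73.4. A further count kept only peaks nearest to the outermost start of Slc11a2 among the outermost starts of protein-coding genes. It left 3, 4 and 4 peaks with 1,25(OH)2D3 and 1, 2 and 0 with vehicle. Other annotated starts were not used, so the hormone-only region at the downstream starts of Slc11a2 went to Gm5475 and was left out. The groups did not overlap in that count either (exact permutation p = 0.1), as at 7.9% of all protein-coding genes counted that way. That count was added after the data were seen.

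**Figure D2:**
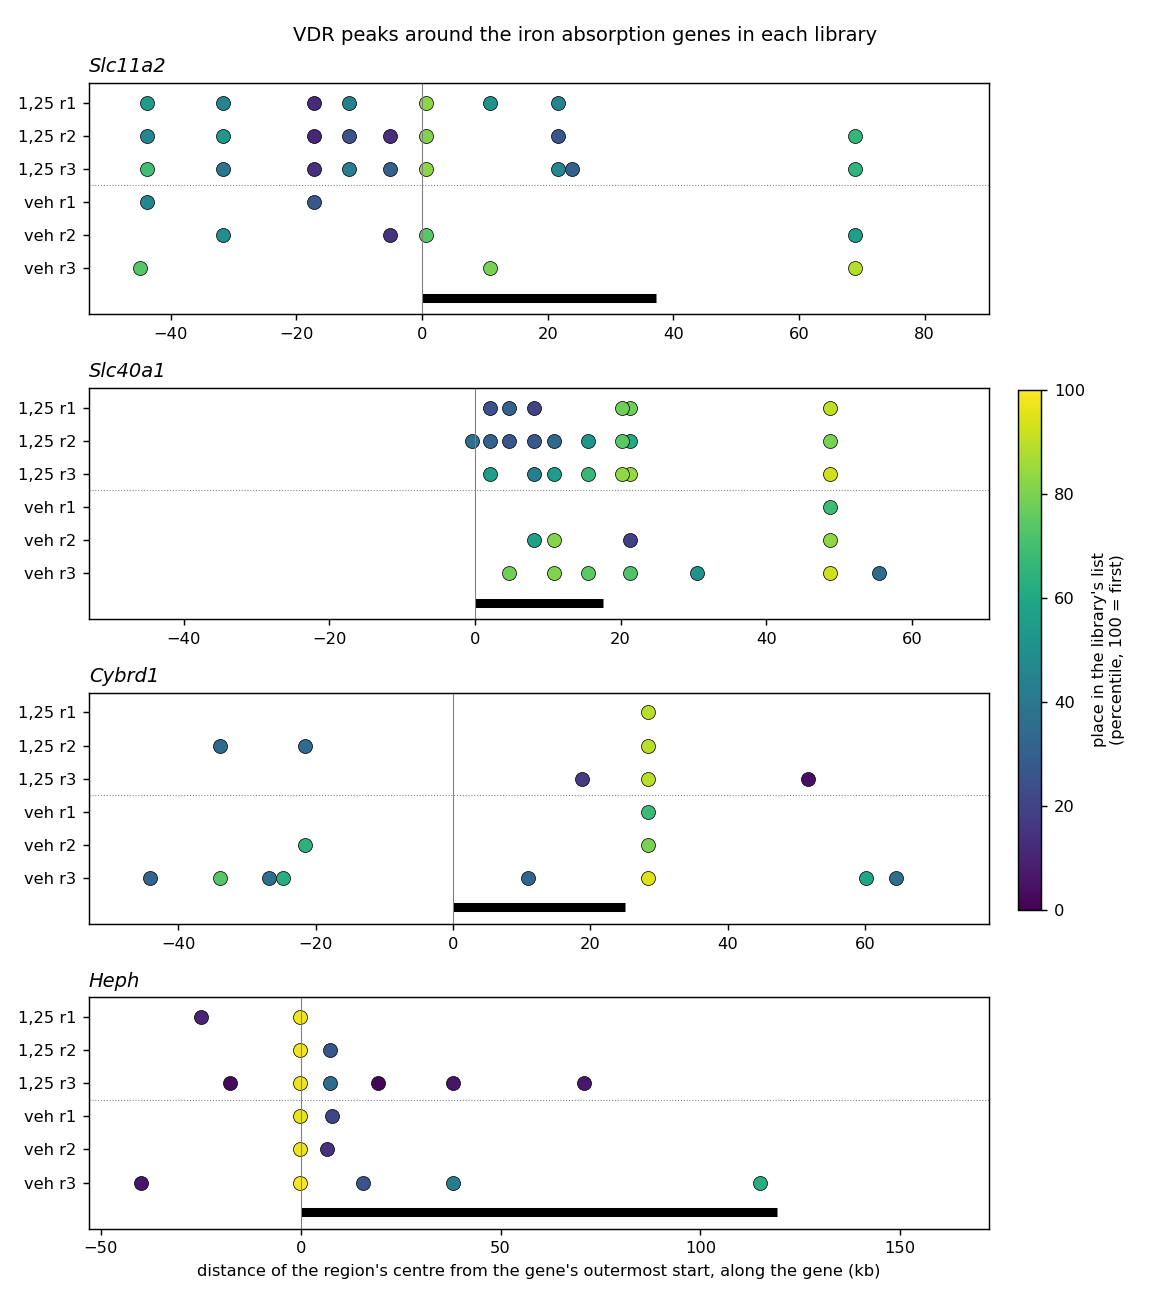
Position of every VDR peak within 50 kb of each gene, by library (1,25(OH)2D3 above, vehicle below the dotted line); the x axis is the distance from the gene's outermost start along the gene in kb, black bars are gene bodies, and colour is the place in the library's list (percentile, 100 = first). A column of 6 points marks the region shared by all libraries at Slc40a1, Cybrd1 and Heph, and no such column exists at Slc11a2.

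At Slc40a1 (ENSMUSG00000025993.4, chromosome 1, 45964915 to 45982439, minus strand), which encodes ferroportin, 1,25(OH)2D3 libraries held 6, 9 and 7 peaks, against 1, 4 and 7 in vehicle libraries. Vehicle replicate 3 reached the 1,25(OH)2D3 values and the other vehicle libraries did not. The means were 7.33 ± 1.53 with 1,25(OH)2D3 and 4.00 ± 3.00 with vehicle (SD, n = 3 each), a difference of 3.33 (exact permutation p = 0.3). Between the shallow libraries the means were 7.5 with 1,25(OH)2D3 and 2.5 with vehicle, and each deep library held 7 peaks. Without vehicle replicate 3 the difference was 4.83, and every 1,25(OH)2D3 library was then above both vehicle libraries, as at 42.3% of all protein-coding genes. Without vehicle replicate 1 it was 1.83. Per 10000 peaks the groups overlapped, at 2.35, 2.96 and 1.68 with 1,25(OH)2D3 and 1.14, 2.69 and 1.45 with vehicle (exact permutation p = 0.4). With lists of equal length they also overlapped, at 3, 2 and 3 peaks with 1,25(OH)2D3 and 1, 3 and 1 with vehicle.

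The regions of Slc40a1 sat inside the gene and behind its 3′ end, and the single region upstream of its start, centred at -354 bp, was in 1,25(OH)2D3 replicate 2 only. A distal region 48.8 kb downstream of the start (45933483 to 45933863) was in all 6 libraries, at percentiles 90, 79.4 and 92.8 with 1,25(OH)2D3 and 69.0, 83.2 and 92.5 with vehicle. The 2 groups' places overlap there. A close pair of regions lay 21.3 kb (45960978 to 45961372) and 20.2 kb (45962113 to 45962460) downstream of the start, just past the 3′ end of the gene. The first was in all 1,25(OH)2D3 libraries, at 77.8, 60.2 and 84.3, and in vehicle replicates 2 and 3, at 19.3 and 71.9.

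The second of the pair was hormone-only, at percentiles 78.1, 74.1 and 83.3. It was higher in the lists than 87.7% of the 4687 hormone-only regions of the genome, where the other hormone-only regions near the 4 genes stood above 33.8% and 31.2% (Slc11a2) and 31.3% (Slc40a1). It was the only hormone-only region near the 4 genes when lists of equal length were used. The closest DR3 had 3 mismatches, while AGGTCA, the consensus unit of the repeat, was present. The other hormone-only region of Slc40a1 lay in an intron 2.06 kb downstream of the start (45980205 to 45980559), at 24.5, 31.6 and 55.1. The intronic regions 8.10 kb (45974135 to 45974549), 10.8 kb (45971443 to 45971746), 15.5 kb (45966819 to 45967121) and 4.66 kb (45977616 to 45977951) downstream of the start were in 2 or 3 1,25(OH)2D3 libraries and in 1 or 2 vehicle libraries. The vehicle peaks in these 4 regions stood at 57.4 to 81.3, and the 1,25(OH)2D3 peaks at 20.2 to 66.8. Vehicle replicates 2 and 3 thus placed them higher in their own lists than the 1,25(OH)2D3 libraries did, and lists of different length give no order of occupancy.

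At Heph (ENSMUSG00000031209.8, chromosome X, 93650698 to 93769824, plus strand), which encodes hephaestin, 1,25(OH)2D3 libraries held 2, 2 and 6 peaks, against 2, 2 and 5 in vehicle libraries. The shallow libraries of both groups held 2 each, and the deep library of each group stood above them. The means were 3.33 ± 2.31 with 1,25(OH)2D3 and 3.00 ± 1.73 with vehicle (SD, n = 3 each), a difference of 0.33 (exact permutation p = 1). The difference was -1 without 1,25(OH)2D3 replicate 3, and -0.17 without vehicle replicate 1 or 2.

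The promoter of Heph held the highest-placed region of all 45. It spans 93650504 to 93650797 and is centred at -48 bp from the start, at percentiles 97.6, 97.9 and 97.6 in 1,25(OH)2D3 libraries and 96.2, 97.6 and 99.1 in vehicle libraries. Both groups placed it in the same narrow range. Its mean percentile of 97.6 was above that of 91.7% of the 4345 regions in all 6 libraries, compared with 53.2% for the region at Cybrd1 and 51.9% for that at Slc40a1. The 6 peak centres lay within 26 bp, the closest agreement of the 18 regions near the 4 genes in 3 or more libraries other than a region in 3 libraries at Slc40a1 (17 bp). The closest DR3 had 2 mismatches, a match that 46% of all regions hold, and none of the other motifs searched was present within 100 bp of the centre. The region lies inside Hsf3, a heat shock factor gene on the opposite strand, whose start is also within 1 kb, so the peak cannot be assigned to either gene by position.

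Elsewhere at Heph, an intronic region 7.29 kb downstream of the start (93657769 to 93658204) was in 1,25(OH)2D3 replicates 2 and 3 and no vehicle library, at percentiles 26.5 and 35.4. The other 10 regions included 9 found in 1 library, at mean percentiles from 1.4 to 62.2. The highest of these was in vehicle replicate 3 near the 3′ end of the gene.

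**Figure D3:**
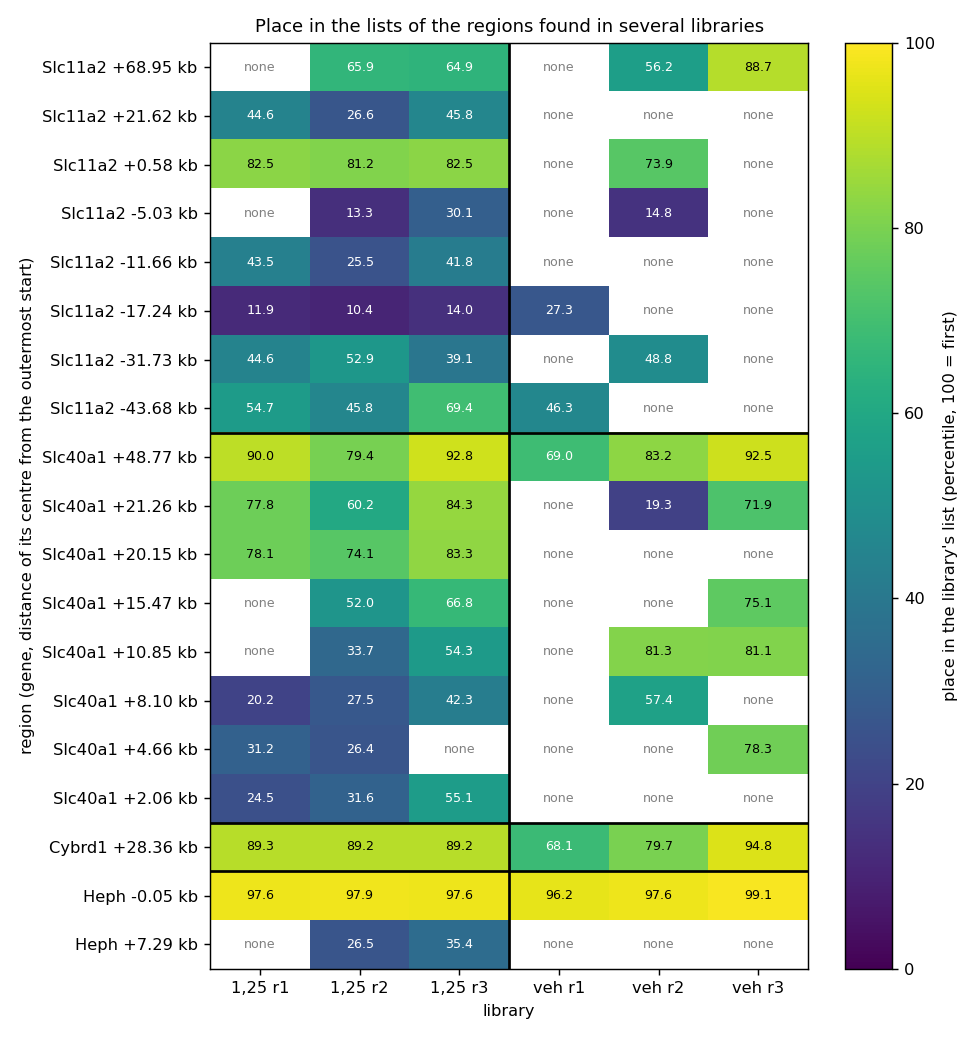
Place in each library's list (percentile, 100 = first) of the 19 regions that were in at least 3 libraries or in at least 2 of the 3 libraries of a group, with 1,25(OH)2D3 libraries left of vehicle libraries; rows give the gene and the distance of the region's centre from its outermost start, and white cells are libraries without a peak. The Heph promoter row is at 96.2 or above in every library, and the Slc11a2 rows are mostly empty with vehicle.

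Set per length, because the windows differ from 117525 bp at Slc40a1 to 219127 bp at Heph, Slc40a1 and Slc11a2 held the most peaks with 1,25(OH)2D3 among the 4 genes. They held 6.24 ± 1.30 and 5.83 ± 0.729 peaks per 100 kb with 1,25(OH)2D3, and Cybrd1 and Heph 1.87 ± 0.924 and 1.52 ± 1.05 (SD, n = 3). The members of each of these pairs overlap in range. Every 1,25(OH)2D3 library held at least 5.10 peaks per 100 kb at Slc40a1 and Slc11a2 and at most 2.74 at Cybrd1 and Heph. With vehicle the order was Slc40a1 (3.40 ± 2.55), Cybrd1 (2.93 ± 3.03), Slc11a2 (2.19 ± 0.729) and Heph (1.37 ± 0.790), and neighbours in that order overlap in range. As a number of peaks with 1,25(OH)2D3, Slc11a2 stood above 91.0% of protein-coding genes, Slc40a1 above 88.3%, Heph above 58.7% and Cybrd1 above 47.2%. As a number of peaks with vehicle, Slc11a2 stood above 75.7% of them, Slc40a1 above 86.6%, Heph above 75.7% and Cybrd1 above 83.7%. These ranks were not set per length. With 1,25(OH)2D3, Heph ranked above Cybrd1 by number but not by mean per 100 kb.

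**Figure D4:**
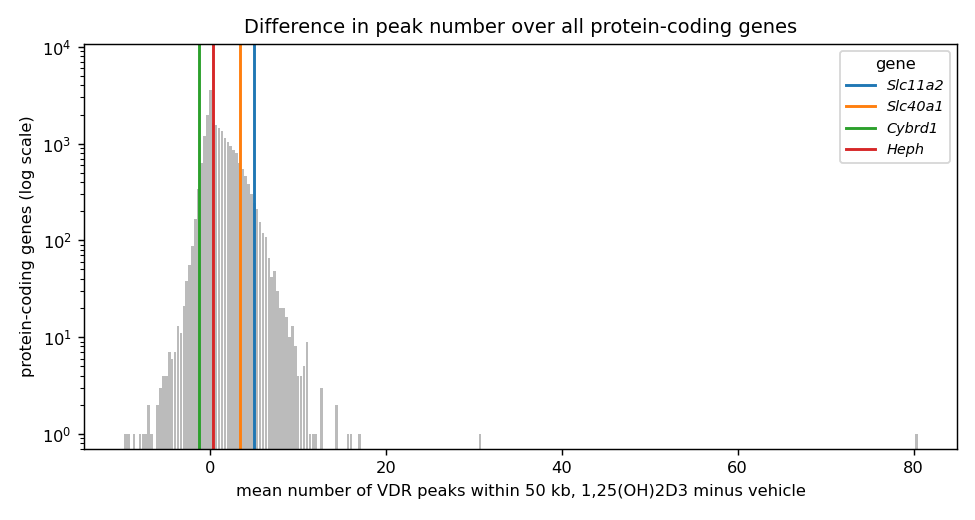
Difference in the mean number of VDR peaks within 50 kb, 1,25(OH)2D3 minus vehicle (x axis, peaks), over 22367 protein-coding genes (y axis, number of genes on a log scale); coloured lines are the 4 iron absorption genes. Slc11a2 lies at 5.00 and Slc40a1 at 3.33, right of the median of 0.67, while Heph lies at 0.33 and Cybrd1 at -1.33.

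Close matches to the VDR element were counted in all 45 regions. Within 100 bp of the centre, on either strand, 2 of 45 regions (4.44%) held a DR3 with at most 1 mismatch, against 10.9% of all regions, and none held one with 0 mismatches, against 1.64%. The 2 were those at Cybrd1 and 17.2 kb upstream of Slc11a2 described above. With at most 2 mismatches the count was 20 of 45, against 46% of all regions, and with at most 1 mismatch within 150 bp it was 4 of 45 (8.89%, against 13.8%). Those added at 150 bp were the hormone-only region at the downstream starts of Slc11a2 and a region upstream of Heph in vehicle replicate 3 only. Among the 18 regions in 3 or more libraries, 2 held a DR3 with at most 1 mismatch, a match present in 19.3% of such regions over the genome. AGGTCA alone was found in 13 of 45 regions (28.9%, against 21.7% of all regions). It was in 9 of the 18, against 32.1% of regions in 3 or more libraries over the genome. None of these counts was tested.

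The other motifs were searched in the same window on both strands, overlaps with one another allowed, and their shares are given beside those of all regions. The hypoxia response element core, ACGTG, was in 5 regions (11.1%, against 9.72% of all regions), among them the region at the upstream starts of Slc11a2, its hormone-only region 11.7 kb upstream and the hormone-only intronic region of Slc40a1. TTTATNG, for CDX factors, was in 4 (8.89%, against 14%), AGATAAG, for GATA factors, in 4 (8.89%, against 5.96%), TGANTCA, for AP-1, in 5 (11.1%, against 10.9%) and CAAAGTCCA, for HNF4, in 1 (2.22%, against 1.56%). A direct repeat of AGGTCA with 1 base between, known as DR1, was searched after the sequences had been seen. It was found with at most 2 mismatches in 1 of 45 regions (6.78% of all regions), with at most 1 mismatch in none (1.37%) and with 0 mismatches in none (0.151%). DR1 was matched to AGGTCA itself and DR3 to a looser pattern, so their counts cannot be compared. A match is a run of letters and not a shown binding site.

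Beyond the 4 genes, 30 of 32 other genes of iron handling were matched by symbol, without Flvcr1 and Tfr2. All 30 had a peak within 50 kb in some library, as did 90.6% of protein-coding genes. Their mean was higher with 1,25(OH)2D3 at 24 and lower at 5, where 63.6% of all genes were higher and 20.4% lower. Groups did not overlap at 8 of the 30, all with 1,25(OH)2D3 above vehicle, against 16% of all genes. The median difference was 2.00 peaks over the 30 genes, 1.83 over the 4 absorption genes and 0.67 over all genes. None of these genes passed the adjusted test, which called 0% of all genes, because no p can be under 0.1.

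The genes of this list with the most peaks with 1,25(OH)2D3 were Slc25a37, Slc39a14, Tfrc, Vhl, Hif1a and Hmox2. Tfrc, the transferrin receptor, had 10, 9 and 12 peaks with 1,25(OH)2D3 and 2, 2 and 6 with vehicle. Slc25a37, mitoferrin of the inner mitochondrial membrane, had 10, 13 and 11 with 1,25(OH)2D3 and 2, 5 and 8 with vehicle. Slc39a14, a transporter of zinc, iron and manganese, had 10, 10 and 14 with 1,25(OH)2D3 and 2, 8 and 5 with vehicle. In each of these 3 the groups do not overlap. Choosing genes by their number of peaks with 1,25(OH)2D3 favours that outcome, so it is not a result about them.

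The list held 4 genes of the hypoxia pathway, of which Vhl, the ubiquitin ligase subunit that marks hypoxia-inducible factors for destruction, and Hif1a, a factor of that family, were among those with the most peaks. Vhl had 12, 9 and 10 peaks with 1,25(OH)2D3 and 2, 6 and 4 with vehicle, and Hif1a 9, 9 and 10 with 1,25(OH)2D3 and 5, 6 and 6 with vehicle, again without overlap. Both were chosen in the same way, so the same limit holds for them. Epas1, which encodes hypoxia-inducible factor 2-alpha, had 7, 6 and 11 with 1,25(OH)2D3 and 2, 6 and 7 with vehicle, and Arnt, the partner of these factors, had 3, 4 and 2 with 1,25(OH)2D3 and 3, 2 and 5 with vehicle. The groups overlap at Epas1 and Arnt, which are named here beyond those with the most peaks. Hmox2, a haem oxygenase, had 8, 8 and 12 with 1,25(OH)2D3 and 5, 4 and 8 with vehicle, where the groups touch at 8. Every gene of the list had at least 1 peak in some library.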

How the data were processed

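VDR ChIP-seq was compared between 3 1,25(OH)2D3 and 3 vehicle libraries, grouped by their titles. Reads were aligned with Bowtie to mm9 and peaks were called with HOMER, per the submitters' processing notes, which give no versions. The settings were a separate call per library with the same input, a false discovery threshold of 0.001 and enrichment of 4-fold or more over both input and the surrounding 10 kb, per the file headers. The authors deposited a score that equals 1 throughout, so presence, position and place in the list were used.

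Overlapping peaks (1 bp or more) of the autosomes, X and Y were joined into regions. Gene models were those of GENCODE mouse version 1 on NCBI build 37, which is mm9; tables on other builds were set aside. Distances run from a gene's outermost annotated start unless another start is named. Peak numbers were compared by exact two-sided permutation over libraries for every protein-coding gene, with Benjamini-Hochberg adjustment and a threshold of 0.05. The counting, permutation and motif scripts (Python 3.11.15, numpy 2.4.6, pysam 0.24.0) were tested on simulated data. The simulated peak counts gave every library the same mean outside planted rises, so lists of unequal length were not covered. DR3 was searched within 100 bp of each centre.

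The members and lists were chosen with earlier results of these data known. Members are all given; regions in at least 3 libraries, or in 2 of 3 of a group, are described singly, as are the 6 other iron genes with the most peaks with 1,25(OH)2D3. Same-numbered libraries deviated together over all genes (correlations of 0.372, 0.125 and 0.328), so a paired alternative was run beside other windows, list lengths and left-out libraries.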

Additional observations from a re-analysis of the deposited data

How the results depend on the processing

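Of 94 alternative values, 79 kept the direction of the value reported, or stayed within 1.5 times a count, and 10 changed sign. The tally includes the replicate block, which leaves each difference unchanged by construction. It also includes region counts with a library left out, which loosens their rule and favours equal or higher counts. No difference could pass 0.05 in this design. With lists of equal length the difference in peak number turned to -0.67 over the 4 genes, -1 at Slc11a2 and -0.33 at Heph; with the first 50% of each list it was -0.33 at Heph. Per 10000 peaks it turned to -0.0533 over the 4 genes and -0.59 at Heph. The cause was not tested. Leaving out 1 library gave differences from 3.50 to 12.0 over the 4 genes, 4.50 to 5.50 at Slc11a2, 1.83 to 4.83 at Slc40a1, -2.67 to 0.83 at Cybrd1 (0.83 without vehicle replicate 3) and -1 to 1.33 at Heph. At Heph it was -1 without 1,25(OH)2D3 replicate 3 and -0.17 without vehicle replicate 1 or 2. Slc40a1 kept its sign in all 14 settings run, though the replicate block could not change it. Its groups overlapped per 10000 peaks and with lists of equal length.

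With the replicate number as a block, the paired differences were unchanged by construction, at 7.33 over the 4 genes (exact permutation p = 0.25, the smallest 3 pairs allow), 5.00 at Slc11a2 (p = 0.25), 3.33 at Slc40a1 (p = 0.5), -1.33 at Cybrd1 (p = 1) and 0.33 at Heph (p = 1), all by exact permutation, and the block changed no call.

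The number of hormone-only regions was 1 with lists of equal length and 1 with the first 50% of each list. It was 4 to 7 with 1 library left out (7 without vehicle replicate 2), where the rule is looser. The number in all 6 libraries was 2 to 4 in every setting run. A DR3 was found in 20 regions with at most 2 mismatches and in 4 within 150 bp. Windows that count only peaks nearest to the gene's own outermost start were added after the data were seen. Tag counts per peak are not in the files, so a place without a peak may hold tags below the caller's threshold, which was 10 to 20 tags per peak with 1,25(OH)2D3 and 10 to 17 with vehicle.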

Other observations

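Members of the storage, recycling and hormone arms of iron handling lay on either side of the median gene. Fth1, the ferritin heavy chain, had 6, 8 and 9 peaks within 50 kb with 1,25(OH)2D3 and 4, 3 and 5 with vehicle, without overlap of the groups. Hamp, which encodes hepcidin and is made mainly by the liver, had 3, 4 and 6 with 1,25(OH)2D3 and 2, 4 and 3 with vehicle. Hephl1, a gene of the hephaestin family, had 7 in each 1,25(OH)2D3 library and 1, 1 and 5 with vehicle, and the groups do not overlap there either. Hmox1, the inducible haem oxygenase, had 0 in every 1,25(OH)2D3 library and 0, 0 and 3 with vehicle. Steap2, a metalloreductase, had 0 in every 1,25(OH)2D3 library and 0, 1 and 5 with vehicle. These genes were chosen after their values were seen, and 16% of all protein-coding genes had 1,25(OH)2D3 libraries above vehicle libraries without overlap.

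Peak centres in the 18 regions near the 4 absorption genes in 3 or more libraries were spread by a median of 87.0 bp, against 97.0 bp for such regions over the genome. At Slc11a2 those regions were spread by 67 to 219 bp, the widest being that 17.2 kb upstream, and at the Heph promoter by 26 bp. The nearest region outside a window was 61.6 kb (Slc40a1) to 67.1 kb (Slc11a2) from the gene body, and the farthest inside was 38.0 kb (Slc40a1) to 44.9 kb (Slc11a2), so no region lay close to the limit of 50 kb.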
